A study of Mus musculus and Rattus norvegicus with 30 samples.

Results

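The Serpina1 and Serpina3 genes of mouse chromosome 12 encode secreted and intracellular serine protease inhibitors, and 9 of them were followed across the dorsal root ganglion (DRG) libraries: Serpina1a, Serpina1b, Serpina1c, Serpina1d, Serpina1e, Serpina3c, Serpina3g, Serpina3i and Serpina3n. They are 9 of 54315 features in the mouse count table and were selected by symbol after earlier results of these libraries had shown Serpina1b among the large strain differences, so the difference between sham strains is described here without a test. The mouse tissue was the L3 and L4 DRG of BALB/c and B10.D2 animals of both sexes, taken 28 days after spared nerve injury (SNI), a cut of the common peroneal and sural nerves that leaves the tibial nerve whole, or after sham surgery. Each mouse library came from 1 animal, and ribosome-depleted RNA was analysed in 6 sham and 4 SNI libraries of BALB/c and 5 of each in B10.D2. The rat tissue was the L5 DRG of male Wistar rats 21 days after ligation and transection of the left L5 spinal nerve (SNT) or sham surgery, with 4 libraries of polyadenylated RNA in each group and 3 animals pooled in each library. All libraries are whole ganglia, and the mouse DRG also hold neurons of the spared branch. The mice were bought at 4 to 8 weeks of age.

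Serpins trap a protease by offering a reactive loop as bait, and cleavage of that loop locks the enzyme in an inactive complex. Serpina1 is alpha-1 antitrypsin, an abundant liver product that inhibits neutrophil elastase, and the mouse carries several near-identical copies where humans have 1 gene. The Serpina3 copies descend from alpha-1 antichymotrypsin. Among them Serpina3n is a secreted inhibitor of leukocyte elastase and granzyme B, and Serpina3g (Spi2A) is an intracellular inhibitor of cathepsins.

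The copies were very alike in sequence, which bears on how reads could be assigned. Coding sequences within Serpina1a to Serpina1e were 96.3% to 98.5% identical over 10 pairs, those within the 4 Serpina3 members 84.3% to 86.7% identical over 6 pairs, and those between the families 62.8% to 69.4% identical over 20 pairs. Of the 100-base windows of each coding transcript, the length of 1 read, 69.3% in Serpina1c, 49.9% in Serpina1a, 29.3% in Serpina1d, 26.4% in Serpina1b and 18.2% in Serpina1e were also found letter for letter in a transcript of another gene. The share was 4.64% in Serpina3g, 2.33% in Serpina3i, 0.204% in Serpina3n and 0 in Serpina3c. Counts of single Serpina1 copies are therefore uncertain. The reference genome is that of C57BL/6J, and BALB/c and B10.D2 reads were both aligned to it, so that a strain difference in level and a strain difference in which copy the reads match cannot be told apart from these counts.

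The promoters of Serpina1b and Serpina1e are shown because these were the copies that differed most between strains. In the RefSeq promoters (250 bases before to 50 after the start, GRCm38.p6), which covered all 9 members, the pair was 98.4% identical over 248 aligned bases. The RefSeq starts of both lie inside the longer Ensembl gene spans. Neither promoter held an exact match to a motif searched for, and looser forms were not searched.
Serpina1b (chr12:103738140-103738439, minus strand): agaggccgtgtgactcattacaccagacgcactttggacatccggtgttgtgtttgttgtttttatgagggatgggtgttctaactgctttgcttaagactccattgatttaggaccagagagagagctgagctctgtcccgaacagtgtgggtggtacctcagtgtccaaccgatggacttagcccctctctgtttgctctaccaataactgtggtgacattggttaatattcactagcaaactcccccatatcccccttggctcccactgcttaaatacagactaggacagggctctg
Serpina1e (chr12:103956848-103957147, minus strand): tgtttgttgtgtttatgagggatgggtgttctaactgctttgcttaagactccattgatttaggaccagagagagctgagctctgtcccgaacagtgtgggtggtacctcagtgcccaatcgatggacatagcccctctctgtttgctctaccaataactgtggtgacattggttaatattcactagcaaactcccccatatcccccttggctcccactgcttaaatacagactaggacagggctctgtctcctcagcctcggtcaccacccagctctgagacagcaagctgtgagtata

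The promoters of Serpina3g and Serpina3i are shown because they hold the palindrome TTCNNNGAA bound by STAT factors, given in capitals. It was found in these 2 members and in 8.30% of 32851 RefSeq mouse promoters of the same length. The match lay 33 bases before the start in Serpina3g and 102 bases before it in Serpina3i. TATAAA was found in Serpina3c alone among the members, 132 bases before the start, and in 13.6% of all promoters. The palindromic motif of 13 letters bound by the liver factor HNF1 was found in no member and in 3 promoters in all. Only exact matches were searched and almost no promoter holds one, so its absence from the members does not show that they lack an HNF1 site. Motifs were searched on both strands.
Serpina3g (chr12:104235897-104236196, plus strand): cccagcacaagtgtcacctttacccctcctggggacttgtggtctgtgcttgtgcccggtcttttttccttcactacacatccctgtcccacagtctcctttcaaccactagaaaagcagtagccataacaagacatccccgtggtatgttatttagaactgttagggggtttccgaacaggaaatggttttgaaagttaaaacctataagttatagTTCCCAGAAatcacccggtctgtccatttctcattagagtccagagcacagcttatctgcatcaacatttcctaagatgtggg
Serpina3i (chr12:104262872-104263171, plus strand): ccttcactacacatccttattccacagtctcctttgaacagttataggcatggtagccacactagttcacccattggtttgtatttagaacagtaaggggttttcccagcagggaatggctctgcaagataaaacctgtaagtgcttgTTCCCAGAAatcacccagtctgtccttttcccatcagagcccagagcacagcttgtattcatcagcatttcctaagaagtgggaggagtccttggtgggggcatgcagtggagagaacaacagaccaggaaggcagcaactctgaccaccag

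The promoters of Serpina3c and Serpina3n are shown because they were the closest pair of the Serpina3 family, 93.5% identical over 294 aligned bases, while the genes themselves differed in level and in their change after injury.
Serpina3c (chr12:104153823-104154122, minus strand): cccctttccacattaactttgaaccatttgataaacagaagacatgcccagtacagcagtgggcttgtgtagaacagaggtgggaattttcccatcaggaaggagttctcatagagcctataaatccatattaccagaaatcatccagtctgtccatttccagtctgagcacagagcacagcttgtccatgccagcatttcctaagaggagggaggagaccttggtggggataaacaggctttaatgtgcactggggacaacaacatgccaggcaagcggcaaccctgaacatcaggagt
Serpina3n (chr12:104406458-104406757, plus strand): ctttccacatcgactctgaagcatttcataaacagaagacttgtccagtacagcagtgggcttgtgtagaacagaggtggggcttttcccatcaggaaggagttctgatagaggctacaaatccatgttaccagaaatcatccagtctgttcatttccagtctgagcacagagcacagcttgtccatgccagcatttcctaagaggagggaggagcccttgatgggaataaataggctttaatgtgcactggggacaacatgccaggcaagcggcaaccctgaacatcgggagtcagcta

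All members lie within chromosome 12 of mm10, the Serpina1 copies and Serpina3c on the minus strand and the other Serpina3 members on the plus strand. Serpina1b (ENSMUSG00000071178) covers 103728156 to 103830373 and encloses Serpina1d (103763594 to 103773592). Serpina1a (103853589 to 103863562), Serpina1c (103894926 to 103904887) and Serpina1e (ENSMUSG00000072849, 103946931 to 103958975) follow. Serpina3c (ENSMUSG00000066361) lies at 104146382 to 104153870, Serpina3g (ENSMUSG00000041481) at 104236245 to 104241939, Serpina3i (ENSMUSG00000079014) at 104263122 to 104269372 and Serpina3n (ENSMUSG00000021091) at 104406729 to 104414329. No member shared exon bases with another annotated gene on the same strand, and genes on the other strand were not compared. Deposited splice junctions, pooled over libraries, matched 4 of 4 introns of the Serpina1b coding transcript, 3 of 4 in Serpina1e, 2 of 4 in Serpina1c, 1 of 4 in Serpina1d and 0 of 5 in Serpina1a. They matched 4 of 4 in Serpina3c and Serpina3g, 5 of 5 in Serpina3i and 3 of 4 in Serpina3n.

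Library totals ran from 29989963 to 41881331 counts in mouse and from 11954612 to 17887909 in rat. Levels are given as CPM, counts relative to the library total scaled by the trimmed mean of M values (TMM), and 3 counts, taken as the floor of detection, were worth 0.0716 to 0.100 CPM in mouse. Neuron markers summed to 8218 to 11778 CPM in every mouse library, satellite glia markers to 2003 to 2714 CPM and Schwann cell markers to 2238 to 5030 CPM, so the tissue label held. BALB/c sham library 50 and BALB/c SNI library 49 stood apart by skeletal muscle markers of 1325 and 522 CPM and neutrophil markers of 245 and 405 CPM, and without both the rise of Serpina3n after SNI in BALB/c (edgeR adjusted p 0.113) and its sex difference (0.0514) were no longer called, while the other calls on members stood. Hepatocyte markers, the defining genes of the tissue best known for Serpina1, were near 0: 10 to 12 of 12 had a group mean under 1 CPM, their sum ran from 1.53 to 4.06 CPM over all mouse libraries, Alb was at most 0.0752 CPM in any library and Ambp was at 0 in all. In whole ganglia, fewer cells of a type and less RNA per cell cannot be told apart.

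Serpina3n was the most abundant member in each mouse group. Per kb of merged exon length its level was 72.7 ± 4.32 CPM per kb (SD, n = 6) in BALB/c sham, 82.3 ± 7.01 (n = 4) in BALB/c SNI, 68.2 ± 6.25 (n = 5) in B10.D2 sham and 75.8 ± 6.96 (n = 5) in B10.D2 SNI libraries. Serpina3g was next, with 19.4 ± 1.09 CPM per kb in BALB/c sham and 41.4 ± 4.10 in B10.D2 sham libraries, and its range did not overlap that of Serpina3n or of Serpina3i in any group. Serpina3i followed at 2.89 ± 0.282 CPM per kb in BALB/c sham and 2.53 ± 0.602 in B10.D2 sham libraries. Below it the order depended on the strain. In BALB/c sham libraries Serpina3c (1.22 ± 0.153 CPM per kb) and Serpina1b (0.846 ± 0.378) overlapped. In B10.D2 sham libraries Serpina3i, Serpina1e (2.31 ± 0.311) and Serpina3c (1.57 ± 0.432) overlapped each with the next. Serpina1a, Serpina1c, Serpina1d and, in BALB/c, Serpina1e reached at most 0.184 CPM per kb in any library, and neighbours in their order overlapped.

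Sham strain levels differed most in the Serpina1 family, where each strain had its counts in a different copy. Serpina1b was at 1.79, 1.95, 3.69, 2.34, 1.22 and 1.26 CPM in BALB/c sham libraries 50, 51, 55, 56, 57 and 71, from 41 to 153 counts, while each of the 5 B10.D2 sham libraries had 0 counts. All BALB/c libraries were high and all B10.D2 libraries empty, and against a floor of 3 counts per library the B10.D2 level was at least 24.8-fold lower. Serpina1e was the reverse, at 3.83, 3.80, 3.21, 3.35 and 4.49 CPM in B10.D2 sham libraries 58, 60, 67, 77 and 88 and at 0 to 0.200 CPM (0 to 8 counts) in the 6 BALB/c sham libraries. The mean was 41.1-fold higher in B10.D2, 3.74 ± 0.502 CPM (SD, n = 5) vs 0.0908 ± 0.0755 (n = 6), and the groups did not overlap.

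The other copies followed Serpina1b. Serpina1a had 2 to 14 counts in each BALB/c sham library and 0 in each B10.D2 sham library, at least 2.42-fold lower in B10.D2. Serpina1c had 0 to 5 counts and Serpina1d 0 to 9 in BALB/c sham libraries, with 0 counts in every B10.D2 library of either condition. Both strains were at or under the floor on average for these copies, so no fold is given.

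Summed over Serpina1a to Serpina1e, the strains were closer. The sum ran from 1.37 to 4.42 CPM with a median of 2.48 in BALB/c sham libraries and from 3.21 to 4.49 with a median of 3.80 in B10.D2 sham libraries, so that the highest BALB/c library, 55, lay within the B10.D2 range and the other 5 below it. After SNI the sums were 1.46 to 3.47 CPM in BALB/c and 1.87 to 3.32 CPM in B10.D2 with means of 2.41 ± 0.869 (SD, n = 4) and 2.40 ± 0.581 (n = 5). Of all Serpina1 counts, Serpina1b held 83.2% in BALB/c sham and 86.0% in BALB/c SNI libraries, while Serpina1e held 100% of 687 counts in B10.D2 sham and 99.8% of 453 in B10.D2 SNI libraries.

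**Figure D1:**
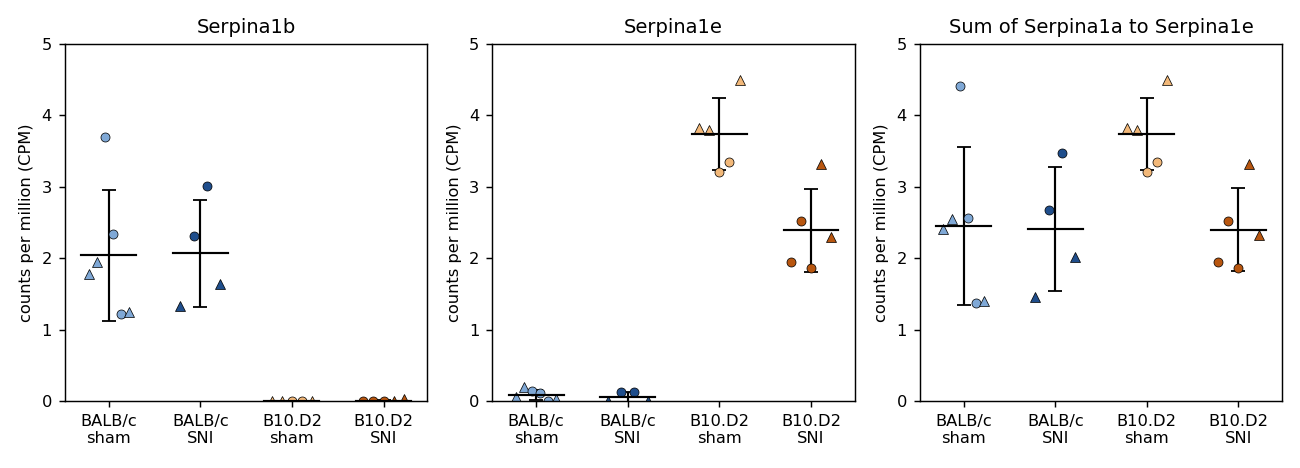
Levels of Serpina1b, Serpina1e and the sum of Serpina1a to Serpina1e in CPM (y axis, linear from 0) in each mouse library (circles female, triangles male), by strain and surgery, with the group mean (line) and SD (bar). Serpina1b lies between 1.22 and 3.69 CPM in BALB/c and at 0 to 0.0280 CPM in B10.D2, Serpina1e shows the opposite, and the sums of the strains overlap.

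The Serpina3 members differed less between sham strains, except for Serpina3g. Serpina3g was at 36.5, 42.7, 41.9, 41.9, 41.5 and 40.0 CPM in BALB/c sham libraries and at 96.3, 86.2, 74.2, 85.4 and 93.5 CPM in B10.D2 sham libraries. All B10.D2 libraries lay above all BALB/c libraries and the mean was 2.14-fold higher. Serpina3c (mean ratio of B10.D2 to BALB/c 1.29), Serpina3i (0.878) and Serpina3n (0.939) overlapped between sham strains. The ranges of 4 of 9 members (Serpina1a, Serpina1b, Serpina1e and Serpina3g) thus did not overlap between sham strains, where 13.3% of 24685 features tested in the fit had ranges that did not overlap. The members were chosen with this contrast in view, and nothing is read from that count.

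The strain difference was tested in the SNI libraries, which are other animals than those of the sham comparison. Of the 9 members, 6 passed the filter on low counts, and 4 of these were called at an adjusted p under 0.05 (edgeR quasi-likelihood test, Benjamini-Hochberg over all features), where 20.8% of the 24685 features were called, 10.9% higher and 9.98% lower in B10.D2. Serpina1b and Serpina1e are 2 of the 4. Serpina1b had 41 to 116 counts (1.33, 2.31, 3.01 and 1.64 CPM in libraries 49, 64, 65 and 70) in BALB/c SNI libraries. B10.D2 SNI library 90 held 1 count and the 4 other B10.D2 SNI libraries none. On library totals the level was 407-fold lower in B10.D2 (95% exact interval for counting error 72.5 to 16122). Serpina1e was at 1.95, 2.53, 1.87, 3.32 and 2.30 CPM in B10.D2 SNI libraries 69, 76, 78, 89 and 90 and at 0, 0.125, 0.130 and 0 CPM in BALB/c SNI libraries. The group mean was 37.5-fold higher in B10.D2. Serpina1b and Serpina1e passed the filter only through the strain in which each was high, so that both had to differ, and their values are given as a description without a test.

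Serpina3g was again higher in B10.D2, at 60.04 to 81.2 CPM in the 5 B10.D2 SNI libraries vs 29.4 to 35.4 CPM in the 4 BALB/c SNI libraries. The log2 fold change was 1.11 (SE 0.08, edgeR adjusted p 9.07e-10), and the groups did not overlap. Serpina3c was higher by 0.69 on the log2 scale (SE 0.21, edgeR adjusted p 0.0250). With both sexes together the groups overlapped, at 1.31 to 3.64 CPM in B10.D2 and 1.08 to 2.27 CPM in BALB/c. Within each sex they did not, with females at 1.31 to 2.64 and 1.08 to 1.19 and males at 2.30 to 3.64 and 2.04 to 2.27. The Serpina3c call was lost without the sex term (adjusted p 0.102) and when 1 of libraries 64, 65, 76, 78 or 89 was left out (largest adjusted p 0.102). Serpina3n and Serpina3i were not called, with log2 fold changes of -0.10 (95% interval -0.20 to 0.00026) and 0.04 (-0.26 to 0.35).

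Of 6 members tested, 3 were called in BALB/c, where 9.69% of all features were called, 4.82% higher and 4.87% lower. In B10.D2, 2 of 6 were called, where 4.58% of features were, 2.1% higher and 2.48% lower. Serpina3n rose and Serpina3g fell in both strains, and Serpina3c fell in BALB/c. The strain by injury interaction was called for 0 of 6 members (0.0243% of all features, 6 in number), with no member at an unadjusted p under 0.05 and none called by DESeq2. Serpina1b, with 1 count over all B10.D2 libraries, and Serpina1e, with at most 8 counts in any BALB/c library, could not show an interaction, so this count bears on the 4 Serpina3 members. The tests of both strains share 1 estimate of spread.

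Serpina3n was at 151, 152, 135, 156, 145 and 160 CPM in BALB/c sham libraries and at 179, 157, 158 and 185 CPM in BALB/c SNI libraries 49, 64, 65 and 70. SNI males (49 and 70) were the highest, and SNI females (64 and 65) lay inside the sham range of both sexes together. Within each sex, with 2 or 3 libraries in a group, the ranges did not overlap. Females were at 135 to 156 CPM in sham and 157 to 158 in SNI libraries, males at 151 to 160 and 179 to 185. The log2 fold change was 0.18 (SE 0.05, edgeR adjusted p 0.0254), a rise of 12.9%. In B10.D2 it was at 149, 154, 123, 132 and 146 CPM in sham libraries 58, 60, 67, 77 and 88 and at 143, 140, 163, 172 and 165 CPM in SNI libraries 69, 76, 78, 89 and 90. These groups overlapped with both sexes together but not within each sex, again with 2 or 3 libraries in a group. Females were at 123 to 132 CPM in sham and 140 to 163 in SNI libraries, males at 146 to 154 and 165 to 172. The log2 fold change was 0.19 (SE 0.05, edgeR adjusted p 0.0275), a rise of 13.9%. Both rises were calls close to the threshold. Without the sex term neither was called (adjusted p 0.133 and 0.256), and both were lost without the filter on low counts (0.0648 and 0.0505) and in 6 of 20 fits that left out 1 library. For BALB/c those libraries were 50, 51, 49, 64, 65 and 70 and for B10.D2 58, 67, 77, 78, 89 and 90, with adjusted p up to 0.0807 and 0.128.

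Serpina3g fell in both strains. In BALB/c it went from 36.5 to 42.7 CPM in sham libraries to 30.9, 29.4, 34.3 and 35.4 CPM in SNI libraries, with no overlap, -0.33 on the log2 scale (SE 0.08) and an edgeR adjusted p of 0.00775. In B10.D2 it went from 74.2 to 96.3 CPM in sham libraries to 60.04, 72.5, 64.2, 81.2 and 72.2 CPM in SNI libraries. Sham library 67, a female, lay below SNI library 89, a male, and within each sex the ranges did not overlap. Females were at 74.2 to 85.4 CPM in sham and 60.04 to 72.5 in SNI libraries, males at 86.2 to 96.3 and 72.2 to 81.2. The change was -0.30 on the log2 scale (SE 0.07), with an edgeR adjusted p of 0.0210. The BALB/c call was kept in all alternatives run. The B10.D2 call was lost in 5 of 20 fits, those without sham library 58 or 77 or without SNI library 69, 78 or 90 (adjusted p 0.0543 to 0.0649). The difference between the strains in this change was a log2 value of 0.03 (SE 0.11, edgeR adjusted p 1).

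Serpina3c fell in BALB/c, from 2.59, 2.58, 3.04, 2.32, 2.45 and 3.17 CPM in sham libraries to 2.27, 1.08, 1.19 and 2.04 CPM in SNI libraries 49, 64, 65 and 70. The ranges did not overlap, and the SNI females, 64 and 65, were lower than the SNI males. The log2 fold change was -0.76 (SE 0.21, edgeR adjusted p 0.0211). The call was lost without library 64 (0.0859), without library 65 (0.0720) or without the sex term (0.0775). In B10.D2 the levels were 4.50, 3.23, 2.93, 2.29 and 4.39 CPM in sham and 1.31, 2.60, 2.64, 3.64 and 2.30 CPM in SNI libraries, which overlapped (log2 fold change -0.37, SE 0.19, edgeR adjusted p 0.351).

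Serpina3i, Serpina1b and Serpina1e were not called after SNI. Serpina3i was at 5.69 to 7.36 CPM in BALB/c sham and 4.96 to 5.86 CPM in BALB/c SNI libraries (log2 fold change -0.23, 95% interval -0.53 to 0.06) and at 3.53 to 6.84 and 4.54 to 7.73 CPM in B10.D2 (0.03, -0.26 to 0.32). Serpina1b in BALB/c had a log2 fold change of -0.01 (95% interval -0.49 to 0.47). Serpina1e in B10.D2 was at 3.21 to 4.49 CPM in sham and 1.87 to 3.32 CPM in SNI libraries, where SNI library 89, a male, alone reached the sham range. Within each sex the ranges did not overlap. Females were at 3.21 to 3.35 CPM in sham and 1.87 to 2.53 in SNI libraries, males at 3.80 to 4.49 and 2.30 to 3.32. The log2 fold change of Serpina1e was -0.60 (SE 0.25, edgeR adjusted p 0.218), and when the B10.D2 libraries were fitted alone it was called at an adjusted p of 0.0254.

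**Figure D2:**
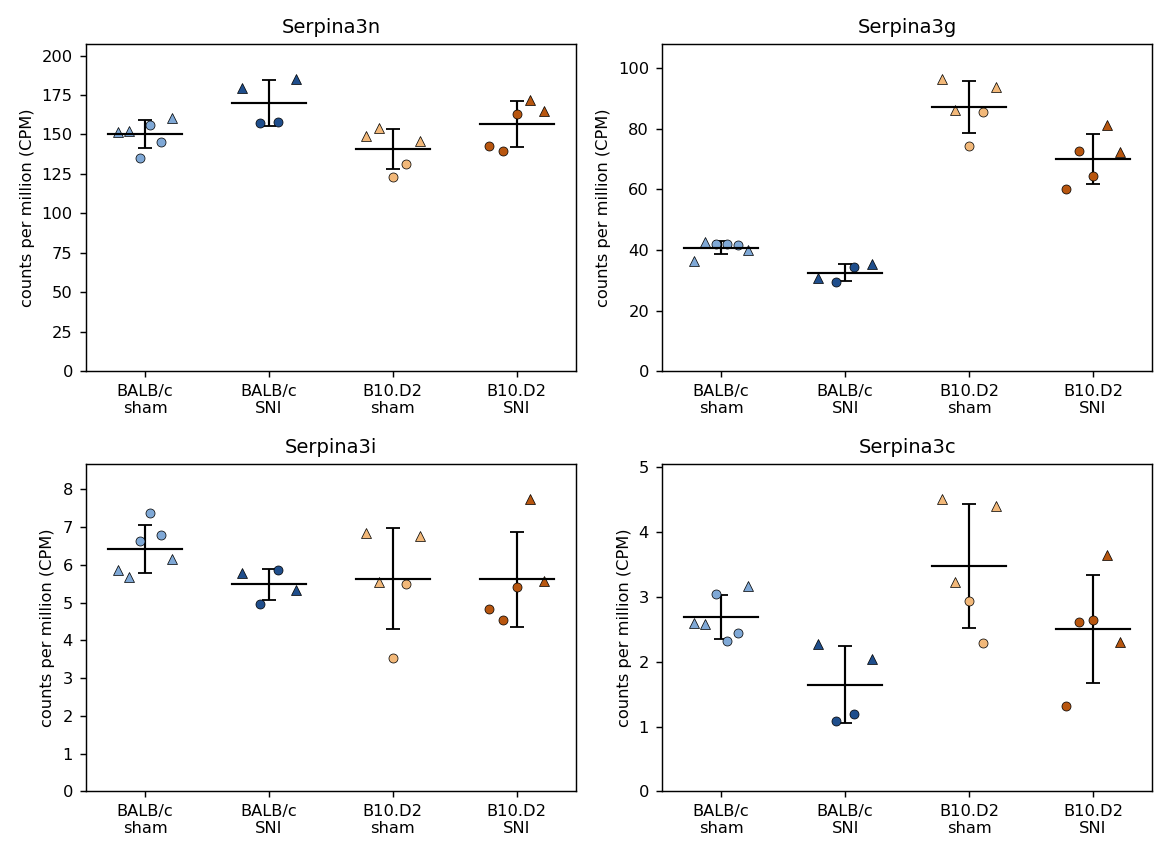
Levels of the 4 Serpina3 members in CPM (y axes, linear from 0, scaled for each gene) in each mouse library (circles female, triangles male), with the group mean (line) and SD (bar). Serpina3g separates the strains and is lower after SNI in both, Serpina3c is lowest in the 2 BALB/c SNI females at 1.08 and 1.19 CPM, and Serpina3n lies between 123 and 185 CPM throughout.

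Sex was examined as a term of the same model. One of 6 members, Serpina3n, was called, where 0.243% of all features (60) were. It was higher in males by 0.17 on the log2 scale (SE 0.03, edgeR adjusted p 0.0381). Mean levels were 155 CPM in males and 146 in females in BALB/c sham libraries, 182 and 157 in BALB/c SNI, 150 and 127 in B10.D2 sham and 169 and 149 in B10.D2 SNI libraries. Males lay wholly above females in all groups but BALB/c sham. The call was lost with sex as the only term (adjusted p 0.470) and in 14 of 20 fits that left out 1 library (adjusted p 0.0510 to 0.119). Those were the fits without BALB/c library 49, 55, 64, 65, 70 or 71 or without B10.D2 library 58, 60, 67, 69, 76, 77, 89 or 90. Serpina3c (0.46, SE 0.14, edgeR adjusted p 0.174) and Serpina1b (-0.63, SE 0.25, edgeR adjusted p 0.316) were not called.

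**Figure D3:**
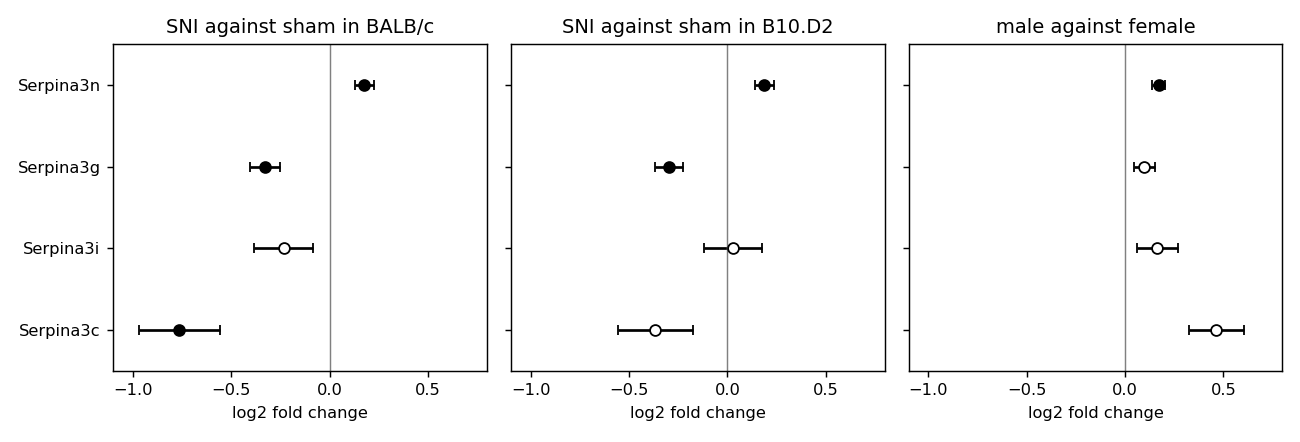
Log2 fold change (x axes) with its SE (bars) of the 4 Serpina3 members for SNI against sham in each strain and for male against female, where filled points have an edgeR adjusted p under 0.05. Serpina3n lies right of 0 in all 3 panels at 0.17 to 0.19, and Serpina3g lies at -0.33 in BALB/c and -0.30 in B10.D2.

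Cell type markers that moved in these comparisons are given beside the members. After SNI in BALB/c, 3 of 7 macrophage markers rose, 1 of 7 Schwann cell markers rose, 0 of 6 satellite glia markers were called and 1 of 8 neuron markers (Nefl, log2 fold change -0.43, SE 0.06) fell. In B10.D2 Nefl also fell (-0.47, SE 0.05), and 0 of 7 macrophage and 0 of 6 satellite glia markers were called. The median log2 fold change of the macrophage markers was 0.52 in BALB/c and 0.42 in B10.D2. For the strain by injury interaction 0 of 7 macrophage markers were called. Summed macrophage markers ran from 68.6 to 173 CPM in BALB/c sham, 125 to 202 in BALB/c SNI, 134 to 163 in B10.D2 sham and 148 to 236 in B10.D2 SNI libraries. Neuron markers summed to 9403 to 10501 CPM in BALB/c sham and 8258 to 9670 in BALB/c SNI, and to 9681 to 11778 in B10.D2 sham and 8218 to 10266 in B10.D2 SNI libraries. All 7 neutrophil markers were lower in B10.D2 SNI than in BALB/c SNI libraries, with sums of 19.5 to 39.8 CPM vs 66.4 to 405 CPM. The 405 CPM was that of library 49, which stood apart, and BALB/c SNI libraries 64, 65 and 70 were at 73.0, 137 and 66.4 CPM. In the same comparison 2 of 4 hepatocyte markers tested were higher in B10.D2, Apoa2 at 0.388 vs 0 CPM and Apoh at 1.23 vs 0.570 CPM in group means. Apoa2 passed the filter only through B10.D2, so that it had to differ. Between the sexes 1 of 8 neuron markers, Nefl, was higher in males (0.22, SE 0.04). The part of these shifts in the members' differences was not tested.

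The genes around the members showed strain differences too. Within 100 kb of a member lay 38 other annotated genes or assembled LncRNAs, of which 8 passed the filter. In SNI libraries 1 of these 8 was higher and 4 were lower in B10.D2, where 10.9% of all features were higher and 9.98% lower. Serpina11, a clade A serpin 21.3 kb from Serpina1e, averaged 1.92 ± 0.275 CPM (SD, n = 5) in B10.D2 SNI and 0.162 ± 0.0475 CPM (n = 4) in BALB/c SNI libraries. The pseudogene Serpina3h, 5.97 kb from Serpina3g, averaged 1.16 ± 0.159 CPM in B10.D2 SNI and 9.36 ± 0.994 CPM in BALB/c SNI libraries (-3.01, SE 0.16, edgeR adjusted p 9.07e-12). In the same libraries Serpina3g stood at 70.02 and 32.5 CPM, so the pair differed between strains in opposite directions. Serpina3f was also lower in B10.D2 (-1.71, SE 0.39). The pseudogene Serpina3e-ps averaged 0.0252 CPM in B10.D2 SNI and 0.677 CPM in BALB/c SNI libraries, and Serpina3m 0.109 and 0.637 CPM. Serpina11, Serpina3e-ps and Serpina3m passed the filter only through the strain in which each was high, so that they had to differ. Their values are given as a description without a test, and nothing is read from the count of neighbours called. Serpina3f ran from 0.0803 to 1.31 CPM among B10.D2 SNI libraries. These neighbours are paralogues of the members, and their counts carry the same uncertainty about which copy a read came from. Serpina10 and Serpina9 were not called in any mouse comparison.

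After SNI the only neighbour called was LncRNA6499, an assembled transcript on the minus strand (104130744 to 104212032) whose span covers Serpina3c on the same strand without sharing exon bases. It fell in BALB/c from 1.123 ± 0.210 CPM (SD, n = 6) to 0.597 ± 0.207 (n = 4), at -0.93 on the log2 scale (SE 0.26, edgeR adjusted p 0.0236), the direction of Serpina3c. The 2 ranges did not overlap, 0.925 to 1.48 CPM in sham and 0.376 to 0.876 CPM in SNI libraries. In B10.D2 it was at 0.452 to 1.02 CPM in sham and 0.335 to 0.558 CPM in SNI libraries and was not called.

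**Figure D4:**
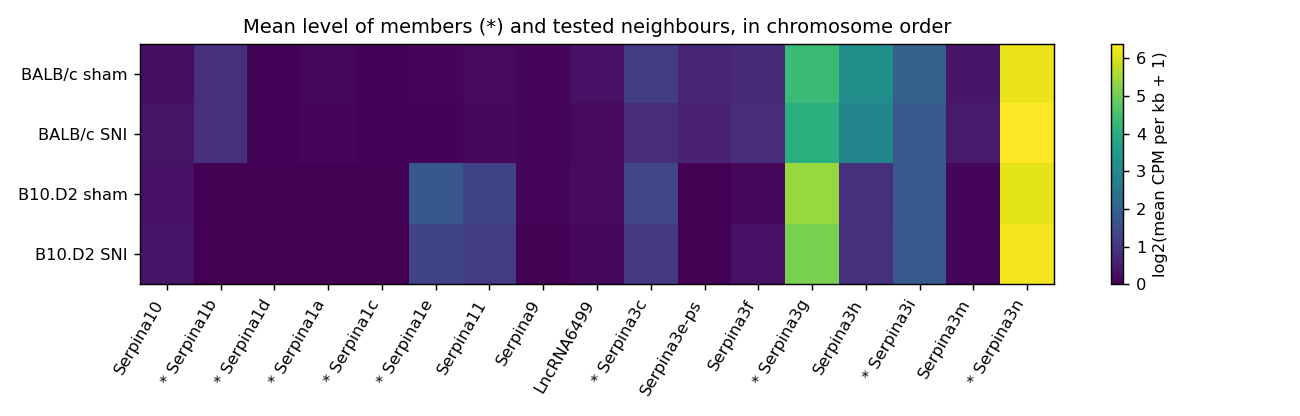
Mean level of the 9 members (asterisks) and the 8 tested neighbours in chromosome order (columns), by group (rows), as log2(mean CPM per kb + 1) in colour. Serpina1b is filled in BALB/c rows only and Serpina1e and Serpina11 in B10.D2 rows, while Serpina3n is brightest in all 4 groups.

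After subtraction of the 4 group means, Pearson's r of log2(CPM + 1) over 20 libraries was positive for every pair of the Serpina3 members, from 0.46 between Serpina3g and Serpina3n to 0.73 between Serpina3g and Serpina3i. It was 0.21 to 0.69 between Serpina1e and these members and -0.42 to 0.12 between Serpina1b and them. Serpina1b was near 0 in all B10.D2 and Serpina1e in all BALB/c libraries, so their values rest on the libraries of the other strain, and sex was not subtracted. Among 18593 features, those most like Serpina3n were Slc25a30 (r = 0.92), Camk2g (0.91) and Coro1b (0.87). Under the same limits, those most like Serpina1b were Myoc (0.83), Lbp (0.83) and Fam26e (0.83), those most like Serpina3c were Hacd3 (0.88), Foxred2 (0.87) and Cpe (0.87), and those most like Serpina3g were Tsr2 (0.86), Gnl2 (0.84) and Nt5e (0.83). Serpina1e was nearest to Mrps18c (0.89), Psma4 (0.84) and Mtif2 (0.83) and Serpina3i to Eif5a (0.82), Cmas (0.81) and Psmd6 (0.81). The points share library depth and dissection, so these values describe the libraries.

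Other genes of the pathway changed in part. Of 6 other clade A serpins tested, 0 were called after SNI in either strain (edgeR; median log2 fold change -0.10 in BALB/c and -0.12 in B10.D2, beside 0.0033 and 0.0076 over all features). Of 16 serpins of other clades tested, 2 rose and 1 fell in BALB/c (median 0.13). These were Serpinb1a, a cytosolic inhibitor of neutrophil proteases (0.91, SE 0.11, edgeR adjusted p 2.10e-05), Serpinb5 (0.65, SE 0.17) and Serpini1, neuroserpin, an inhibitor of tissue plasminogen activator (-0.23, SE 0.05). In B10.D2 1 rose and 1 fell (median 0.11): Serping1, the C1 inhibitor of complement (0.34, SE 0.07), and again Serpini1 (-0.22, SE 0.05). Of 11 leukocyte and mast cell serine proteases tested, which include the serpin targets neutrophil elastase and granzyme B, 1 rose in BALB/c (median 0.28) and 0 were called in B10.D2 (median -0.01). The gene that rose was Gzmb, granzyme B (1.91, SE 0.50, edgeR adjusted p 0.0181). Its group means were low, 0.0666 CPM in BALB/c sham and 0.271 CPM in BALB/c SNI libraries. The sham mean lay under the floor of detection, so the size of the rise in Gzmb is uncertain. In SNI libraries 4 of the 11 were lower in B10.D2 (median -0.37), where 9.98% of all features were. They were led by neutrophil elastase Elane (-3.14, SE 0.89), Prss34 (-3.08, SE 0.84) and proteinase 3, Prtn3 (-1.84, SE 0.61). Their levels were low, with group means of 0.179, 0.0576 and 0.493 CPM in B10.D2 SNI and 1.69, 0.538 and 1.79 CPM in BALB/c SNI libraries. The Prss34 mean in B10.D2 SNI libraries lay under the floor of detection, so the size of its difference is uncertain. Such genes may have passed the filter only through BALB/c, and nothing is read from their count. Of the other clades 5 were higher in B10.D2 SNI libraries and 0 lower (median 0.25), led by Serpinb1b (0.77, SE 0.09) and Serpine2, an inhibitor of thrombin and plasminogen activators (0.54, SE 0.06).

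Of 16 genes from the IL-6 family to STAT3, which drives acute-phase genes, 2 rose in BALB/c (median 0.11) and 0 were called in B10.D2 (median 0.08). The 2 were the feedback inhibitor Socs3 (0.62, SE 0.18, edgeR adjusted p 0.0321) and the transcription factor Cebpd (0.51, SE 0.15, edgeR adjusted p 0.0378). Of 16 acute-phase and reactive glia genes, 6 rose in BALB/c (median 0.30) and 4 in B10.D2 (median 0.20). Complement C4b rose in both (0.79, SE 0.11 and 0.69, SE 0.11), the astrocyte and satellite glia filament Gfap (1.36, SE 0.42) and Timp1 (1.11, SE 0.31) in BALB/c, and the chemokine Cxcl10 (1.80, SE 0.36) in B10.D2. All 10 nerve injury markers rose in BALB/c (median 2.39) and 9 of 10 in B10.D2 (median 1.39), led by Sprr1a (4.92, SE 0.39 and 5.05, SE 0.45), beside log2 changes of 0.18 and 0.19 in Serpina3n. In SNI libraries 1 of the 16 IL-6 to STAT3 genes, the receptor Il6ra, was lower in B10.D2 (-0.56, SE 0.17), and of the acute-phase and glial genes 3 were higher and 2 lower, led by Lcn2, a neutrophil and acute-phase protein (-2.33, SE 0.51).

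In rat, 2 member symbols were in the deposited table, Serpina3n (ENSRNOG00000010478) and Serpina3c (ENSRNOG00000010410). The rat table lists 17036 of 39281 features at 0 in all libraries, among them Tubb3 and Rbfox3, which mark neurons, so a low rat count cannot be read as absence of the RNA. Serpina3c had 0 to 2 counts in each rat library. Rat Serpina3n was at 5.22, 10.003, 7.62 and 60.6 CPM in sham libraries 1 to 4 and at 32.9, 12.7, 18.0 and 34.9 CPM in SNT libraries 1 to 4. Sham library 4 was the highest of all 8, and the other 3 sham libraries lay below every SNT library. The log2 fold change over all libraries was 0.23 (SE 0.70, edgeR adjusted p 0.826), so 0 of 1 member tested was called, where 27.4% of 13690 features were, 12.3% higher and 15.1% lower. DESeq2 called 0 as well, and the unadjusted p of edgeR was 0.748, so 0 members had an unadjusted p under 0.05. Without sham library 4 the log2 fold change was 1.69 (edgeR adjusted p 0.00845), and without both sham library 4 and SNT library 1 it was 1.51 (0.00830). On the first principal component over all tested genes the 2 libraries left out had middle scores, -10.2 for sham library 4 and 0.789 for SNT library 1. The remaining sham libraries scored -61.5 to -47.8 and the remaining SNT libraries 41.7 to 65.3. Cell type markers moved after SNT as well. Of 4 neuron markers tested 3 fell (median log2 fold change -1.25), with sums of 5116 to 7624 CPM in sham and 3721 to 6584 CPM in SNT libraries, and 1 of 2 satellite glia markers fell. Of the markers tested, 2 of 4 of Schwann cells, 2 of 4 of T cells, 1 of 3 of macrophages, 1 of 2 of endothelium and 1 of 3 of fibroblasts rose. Summed macrophage markers were 73.3 to 273 CPM in sham and 245 to 321 CPM in SNT libraries. The part of these shifts in the result was not tested.

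**Figure D5:**
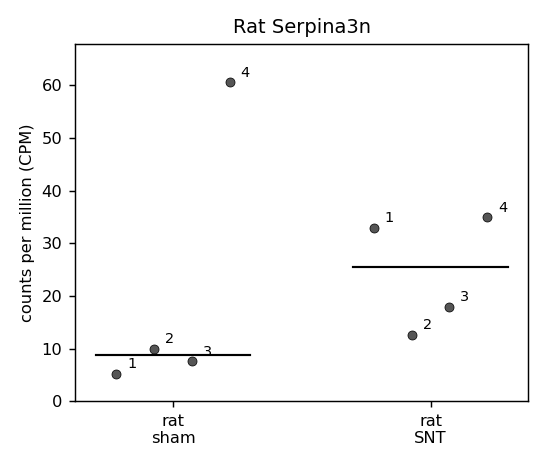
Level of rat Serpina3n in CPM (y axis, linear from 0) in the 4 sham and 4 SNT libraries, each point labelled with its library number and each line a group median. Sham library 4 stands at 60.6 CPM, above all SNT libraries, and the other 3 sham libraries at 5.22 to 10.003 CPM lie below them.

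Rat Serpina1, which is not a member symbol and was chosen after its values were seen, is the single rat gene of its name. It was at 22.2, 26.8, 26.9 and 57.8 CPM in sham libraries 1 to 4 and at 58.4, 43.6, 49.4 and 68.8 CPM in SNT libraries 1 to 4, with sham library 4 again the highest sham library and within the SNT range. Of 2 other clade A serpins tested in rat, Serpina1f rose (2.21, SE 0.41, edgeR adjusted p 0.0113) and Serpina11 fell (-0.65, SE 0.21, 0.0423). Of 4 serpins of other clades, Serping1 (0.91, SE 0.26) and Serpinh1 (0.69, SE 0.19) rose. Of the IL-6 to STAT3 genes 4 of 10 rose, of the acute-phase and glial genes 4 of 8, led by complement C3 (2.10, SE 0.27), of the proteases 0 of 1, and of the nerve injury markers 7 of 7 (median 1.44).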

How the data were processed

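Total RNA of whole DRG was sequenced as strand-specific paired-end libraries, 20 from mouse and 8 from rat. The authors aligned reads with STAR to mm10 and rn6, allowing up to 20 places per read, and the deposited values are whole-number counts per Ensembl gene or assembled LncRNA from HTSeq in its intersection-nonempty mode. Versions and the strand setting are not given in the sources used here. The paper states that its downstream work rested on uniquely mapped read pairs, and by default HTSeq also leaves out reads that align to several places. Leaving out such reads lowers counts of near-identical genes. The authors' own fold changes and p-values were deposited too and were not used, except for the symbols paired with gene identifiers. Of the labelled mouse samples, 2 are not analysed here.

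The 9 members were found by symbol, 8 from the deposited pairs and Serpina3g from a reference table. Members and gene lists were chosen with earlier results of these data known. All members are named, and of each list at most the 3 called genes of largest log2 fold change in a comparison. Other features named are neighbours within 100 kb that were called or tested, and the 3 features with the highest r to each member.

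Counts were tested with edgeR 4.0.16 in R 4.3.3 (TMM, filterByExpr, quasi-likelihood F test, Benjamini-Hochberg over all features, threshold 0.05), with group and sex as terms in mouse and condition in rat. SE is the log2 fold change divided by the root of F. Alternatives were DESeq2 1.42.0, another scaling, other filters, other terms and each library left out. Totals were 29989963 to 41881331 counts in mouse and 11954612 to 17887909 in rat, and intervals and floors on counts cover counting error only. Replicate pairs all differed beyond sampling noise (53 pairs, chi-square per degree of freedom 7.53 to 64.6). On simulated counts for the 24685 mouse features the BALB/c fit recovered 85.9% of 2-fold and 98% of 4-fold changes and the B10.D2 fit 82.8% and 99.0%. On 13690 features the rat fit recovered 61.1% and 92.5%. Of the features left unchanged, 13, 5 and 9 were called in these fits. Smaller changes, such as those of Serpina3n and Serpina3g after SNI, were not simulated. Each mouse library is 1 animal and each rat library a pool of 3. Promoters and positions are from RefSeq GRCm38.p6 and Ensembl mm10.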

Additional observations from a re-analysis of the deposited data

Results flagged for a closer look

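Among 29 groups of 4 to 6 libraries, 1 held a value far from the others. Rat Serpina3n was at 60.6 CPM in sham library 4, where the nearest other sham library was at 10.003 CPM (n = 4, gap 0.914 of the range). Chance alone flags about 1 in 20 groups.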

How the results depend on the processing

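Of the calls on members, Serpina3g between strains in SNI libraries and Serpina3g after SNI in BALB/c held in all 27 alternatives run for each. The number of members called fell from 3 to 1 in BALB/c without the sex term, from 2 to 1 in B10.D2 without the filter and to 1 without the sex term, and from 1 to 0 between sexes with sex as the only term or without libraries 49 and 50. In rat it rose from 0 to 1 without sham library 4 and SNT library 1. With 1 library left out the number ran from 1 to 3 in BALB/c, 0 to 2 in B10.D2, 3 to 5 between strains, 0 to 1 between sexes and 0 to 1 in rat. Leaving out libraries 49 and 50, or the 2 rat libraries, was chosen after seeing the data.

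Signs that changed were those of uncalled members. Without the sex term they were Serpina1b in BALB/c (0.021), Serpina3i in B10.D2 (-0.0045) and the Serpina3n interaction (-0.026), and without libraries 49 and 50 Serpina1b in BALB/c (0.081). With 1 library left out, log2 fold changes ran from -0.17 to 0.20 for Serpina1b in BALB/c, -0.22 to 1.51 for it in B10.D2 and -0.11 to 0.088 for Serpina3i in B10.D2. Interactions ran from -0.21 to 1.52 (Serpina1b), -0.59 to 0.41 (Serpina1e), -0.017 to 0.091 (Serpina3g) and -0.020 to 0.034 (Serpina3n). Serpina3i between strains ran from -0.081 to 0.11 and rat Serpina3n from -0.069 to 1.69. Levels on the longest transcript instead of merged exons were 1.18 CPM per kb for Serpina1b in BALB/c SNI, and for Serpina3g 22.6 and 18.0 in BALB/c sham and SNI and 48.3 and 38.8 in B10.D2 sham and SNI libraries, by the shorter length. The other causes were not tested.

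In rat, the sham and SNT libraries given the same replicate number share the leading number of their labels, whose meaning the labels do not state. Their deviations correlated at 0.053, -0.226, -0.080 and -0.066, and those of libraries with unlike numbers at -0.460 to 0.411. These few values show no pairing by number but cannot decide whether the libraries were paired. With that number as a replicate block Serpina3n had a log2 fold change of 0.81 (edgeR adjusted p 0.302, 0 called), beside 0.23 without it.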
